A study of Mus musculus with 2 samples.

Results

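The 37 autophagy genes described here are a fixed list of named genes, chosen for their roles in building the autophagosome, out of 21938 protein-coding genes of the GENCODE M21 annotation. They comprise 16 initiation genes, 16 conjugation genes and 5 genes of cargo receptors. Autophagy encloses cytoplasm, organelles or microbes in a double membrane that then fuses with the lysosome. The ULK kinase complex and the class III phosphatidylinositol 3-kinase complex start the membrane, lipid transfer and scramblase proteins enlarge it, and conjugation enzymes attach ATG8 proteins to its lipid, where receptors bind them together with cargo. Macrophages use the pathway against intracellular bacteria, and part of its conjugation machinery also acts on phagosomes.

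The study mapped H3K4me3, histone H3 carrying 3 methyl groups on lysine 4, which is found at promoters, by chromatin immunoprecipitation and sequencing. Its 1 group was unstimulated macrophages grown from C57BL/6J bone marrow, with no transgene or agent named in the labels. Age is given as unknown. The 2 biological replicates came from different cell preparations listed under 1 donor entry. The labels do not say whether these were separate animals, and differences between them may be technical. There is no second condition, so no test over samples was possible and every value below is a description. Peaks are those of each replicate's own list, 20031 in replicate 1 and 16376 in replicate 2. Read depth is unknown. All 10 macrophage markers had a promoter peak in both replicates. None of the 7 neutrophil, 5 B cell, 4 dendritic cell and 4 fibroblast markers did, although Cd79b and Zbtb46 had a peak in replicate 1, and 1 of 5 T and NK cell markers, Cd3d, had one in both, of 947 and 850 bp in replicates 1 and 2.

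All 37 autophagy genes carried H3K4me3 within 1000 bp of an annotated transcript start in both replicates. Across all protein-coding genes the share was 49.5%, or 10869 genes, called marked here. It was higher at genes whose 5′ end is rich in CG pairs, as given below. The 16 initiation, 16 conjugation and 5 receptor genes were thus equally complete, and the genes differed in how wide the mark was, how high it was, and at which of their starts it lay. Width is that of a domain, in which peaks no more than 1000 bp apart are merged. Height is the authors' fold of the highest peak at a start, a value used only within a list and turned into a percentile among the coding genes marked in that list.

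The genes have a median of 5 annotated starts, and every start lay under a peak in both replicates at 4 of them, Pik3c3, Atg12, Gabarap and Gabarapl1. These genes have only 3 or 4 starts each, and the share of all marked genes with every start covered was not computed. RefSeq promoters of 300 bp on GRCm38.p6 (mm10), from 250 bases before to 50 after the start, were at hand for 31 of the 37 genes. The entry is missing for Rb1cc1, Becn1, Pik3c3, Atg12, Atg16l1 and Map1lc3a. The 5 genes whose promoters hold CACGTG, the E-box bound by the MiT/TFE factors that control lysosomal and autophagy genes, are printed first, 5′ to 3′ on the strand of the gene, with the motif in capitals. They are Atg14 (chr14:47568385-47568684, minus strand), the internal start of Rubcn (chr16:32868317-32868616, minus strand), Atg3 (chr16:45158579-45158878, plus strand), Atg5 (chr10:44268089-44268388, plus strand) and Atg7 (chr6:114670846-114671145, plus strand).
Atg14: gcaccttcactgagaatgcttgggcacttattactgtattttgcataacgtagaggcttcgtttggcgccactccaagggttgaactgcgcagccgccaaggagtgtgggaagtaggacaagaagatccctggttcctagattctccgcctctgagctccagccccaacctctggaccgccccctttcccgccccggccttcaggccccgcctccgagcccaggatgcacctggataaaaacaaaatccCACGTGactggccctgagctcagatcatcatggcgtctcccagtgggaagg
Rubcn, internal start: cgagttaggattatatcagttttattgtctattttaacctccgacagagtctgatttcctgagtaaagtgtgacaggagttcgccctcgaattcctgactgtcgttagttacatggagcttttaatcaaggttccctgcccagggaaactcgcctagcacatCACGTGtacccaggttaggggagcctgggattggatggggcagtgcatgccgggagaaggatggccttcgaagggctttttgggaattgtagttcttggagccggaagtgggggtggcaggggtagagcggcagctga
Atg3: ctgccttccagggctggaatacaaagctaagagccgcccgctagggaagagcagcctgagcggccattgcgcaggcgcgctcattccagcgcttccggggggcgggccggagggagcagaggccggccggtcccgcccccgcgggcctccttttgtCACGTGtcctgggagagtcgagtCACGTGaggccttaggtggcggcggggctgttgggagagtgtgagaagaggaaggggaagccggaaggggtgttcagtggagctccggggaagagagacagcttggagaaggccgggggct
Atg5: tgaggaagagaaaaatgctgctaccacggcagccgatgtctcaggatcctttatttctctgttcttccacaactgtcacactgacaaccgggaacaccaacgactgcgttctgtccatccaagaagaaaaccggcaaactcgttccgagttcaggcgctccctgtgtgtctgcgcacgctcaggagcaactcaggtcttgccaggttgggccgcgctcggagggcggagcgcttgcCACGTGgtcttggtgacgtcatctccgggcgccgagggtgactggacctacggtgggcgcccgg
Atg7: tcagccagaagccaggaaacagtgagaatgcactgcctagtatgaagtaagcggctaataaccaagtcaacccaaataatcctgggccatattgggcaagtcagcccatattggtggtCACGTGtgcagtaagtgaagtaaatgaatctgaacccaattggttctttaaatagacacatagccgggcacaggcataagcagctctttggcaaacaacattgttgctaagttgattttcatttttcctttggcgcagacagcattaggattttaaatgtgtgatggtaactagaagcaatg

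The promoters of Atg14 and of the internal Rubcn start lay wholly under peaks, with 300 of 300 bases covered in both replicates. Atg3, whose promoter holds the motif at 2 places, had 121 and 92 bases under peaks in replicates 1 and 2. Atg5 had 277 and 255. The Atg7 promoter had 0 in either: it lies 9066 bp from the nearest GENCODE start of the gene, and the nearest peak was 21686 bp away in replicate 1 and 26214 bp in replicate 2. The E-box of Atg7 was therefore not in the marked region of that gene, which lies at its GENCODE 5′ end. CACGTG was found in 5 of 31 members, 16.1%, and in 9.18% of 16522 coding genes with a promoter and 12.2% of the 8609 marked ones. TCACGTG on either strand, which always contains the shorter motif, was found in 4 members (Atg14, Rubcn, Atg3 and Atg7), 12.9%, and in 5.15% and 7.49% of those sets.

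Further motifs were searched on both strands in the same promoters. TGACNNNGC, the core of the antioxidant response element bound by NRF2, was found in 4 members, Ulk2, Atg13, Map1lc3b and Tax1bp1. That is 12.9% of members, against 15.0% of all coding promoters and 17.2% of marked ones. Sqstm1, a gene known to be induced by NRF2, had no such match in its 300 bases. CCAAT was found in 29.0% of members, against 42.1% and 43.6% of those sets, and the ETS core CCGGAA in 22.6%, against 21.5% and 34.7%. TATAAA was found in Atg4a and Sqstm1 only, 6.45%, against 14.3% and 8.13%. The Atg4a match is in a window 3062 bp from the nearest GENCODE start with 0 bases under peaks, and the marked promoter of that gene had none. These are matches of letters in short windows, and no factor's binding was measured.

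A second pair of promoters is printed because their starts lay partly or wholly in a gap between peaks, with every CG dinucleotide in capitals. They are the 5′ start of Rubcn (chr16:32877680-32877979, minus strand) and Atg4b (chr1:93754655-93754954, plus strand), both on head-to-head promoters shared with another coding gene.
Rubcn, 5′ start: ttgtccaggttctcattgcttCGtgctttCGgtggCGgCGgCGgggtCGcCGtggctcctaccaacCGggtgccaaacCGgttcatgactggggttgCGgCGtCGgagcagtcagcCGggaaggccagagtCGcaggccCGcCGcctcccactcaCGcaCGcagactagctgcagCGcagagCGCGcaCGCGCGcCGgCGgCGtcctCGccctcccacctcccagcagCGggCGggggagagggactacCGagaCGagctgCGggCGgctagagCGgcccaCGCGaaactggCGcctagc
Atg4b: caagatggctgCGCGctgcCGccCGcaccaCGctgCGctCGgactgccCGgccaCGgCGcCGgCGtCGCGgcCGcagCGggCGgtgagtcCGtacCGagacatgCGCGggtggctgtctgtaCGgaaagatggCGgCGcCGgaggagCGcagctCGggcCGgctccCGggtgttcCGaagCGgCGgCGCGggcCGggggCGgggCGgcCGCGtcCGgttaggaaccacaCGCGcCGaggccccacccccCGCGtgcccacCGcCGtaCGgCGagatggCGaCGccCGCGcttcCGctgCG

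The Atg4b window holds 55 CG dinucleotides, the most among the 36 windows of the members, whose median is 20 and lowest value 3. It had 0 bases under a peak in either replicate, the nearest peaks being 95 and 203 bp away in replicates 1 and 2. The Rubcn window had 209 and 113 of 300 bases under peaks. Of the 36 windows, 13 lay wholly under peaks in both replicates and 5 had no base under a peak in either. The 5 were those of Ulk1, Atg4b, Optn and Atg7 and the upstream window of Atg4a. The last 2 lie 9066 and 3062 bp from the nearest GENCODE start, so they are not the marked promoters of their genes. Shares over other coding promoters were not computed.

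The ULK complex senses nutrient and stress signals. With peaks merged, all 5 of its genes had domains above the median width of marked genes, 1946.5 bp. Rb1cc1, the scaffold also called FIP200, had the widest, 2678 bp in replicate 1 and 2605 bp in replicate 2. Atg13, the adaptor that binds the kinase, followed with 2491 and 2179 bp. The kinase genes Ulk1 and Ulk2 had 2086 and 1876 bp and 2247 and 2148 bp, while Atg101, the partner of ATG13, had 2181 and 1965 bp. The domains of Rb1cc1, Atg13 and Ulk2 were each merged from 2 peaks in both replicates. Without merging, their mean widths lay below the median of marked genes, 1473.5 bp. Those of Ulk1 and Atg101 lay above it, and Ulk1 was then the widest of the complex. Width and height did not rank the 5 genes alike. Atg101 had folds of 57.2 and 22.7 in replicates 1 and 2, a mean percentile of 92.9. Ulk1 had 29.5 and 9.53 and Ulk2 31.8 and 10.6, at percentiles of 27.8 and 32.3, so the kinases were the lowest of the complex in both replicates.

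The class III phosphatidylinositol 3-kinase complex makes the lipid that marks the forming membrane. Its genes included the highest fold of all 37 on a narrow domain. Becn1 (gene record chr11:101285952-101302286 on mm10), which encodes the scaffold Beclin 1, had folds of 64.5 and 29.2, a mean percentile of 99.6, on 1567 and 1384 bp, a width percentile of 27.1. Narrow domains were also seen at Pik3c3, the catalytic subunit (1717 and 1452 bp), Pik3r4, its regulatory subunit (1349 and 1066 bp, the narrowest initiation gene), and Atg14, which directs the complex to autophagosome formation (1491 and 1369 bp). Uvrag, which replaces ATG14 in a second form of the complex, had the opposite shape. It was the widest initiation gene, with 3291 and 3089 bp, and had folds of 38.9 and 12.3 at a mean percentile of 44.5. Rubcn, an inhibitor of the UVRAG form that takes part in marking phagosomes, had separate domains at 2 starts. Its widest was the 5′ one in replicate 1, 2391 bp, and the internal one in replicate 2, 1989 bp, and the mean of these enters the medians below. The median width of these 6 genes was 1530 bp, against 2197.5 bp for the ULK complex. That order depends on merging peaks. Becn1, Pik3c3, Pik3r4 and Atg14 each had 1 peak in both replicates, while the domains of Rb1cc1, Atg13 and Ulk2 were merged from 2. Without merging, the mean widths of those ULK genes lie below 1530 bp, and so does the ULK median. The median of the 6 genes stays at 1530 bp, since the widest peaks of Uvrag and Rubcn remain above it.

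The 5 membrane genes had a median width of 2246.5 bp. Atg2b, a lipid transfer protein, had 2889 and 2815 bp, and Atg2a, its paralogue, 1925 and 1218 bp, so the replicates differed 1.58 times at Atg2a and 1.03 times at Atg2b. In replicate 1 the Atg2a domain included an upstream peak of 371 bp with a fold of 4.30, not called in replicate 2. The main Atg2a peaks were 1327 and 1218 bp. Atg9a, the scramblase of the vesicles that seed the membrane, had 2475 and 2109 bp. The lipid-binding WIPI genes were alike in width, with 2308 and 2185 bp at Wipi2 and 2162 and 1952 bp at Wipi1, but not in height. Wipi2 had folds of 50.4 and 21.3, at a percentile of 84.8, and Wipi1 had 23.9 and 8.74, at 21.6, the lowest of the initiation class.

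**Figure D1:**
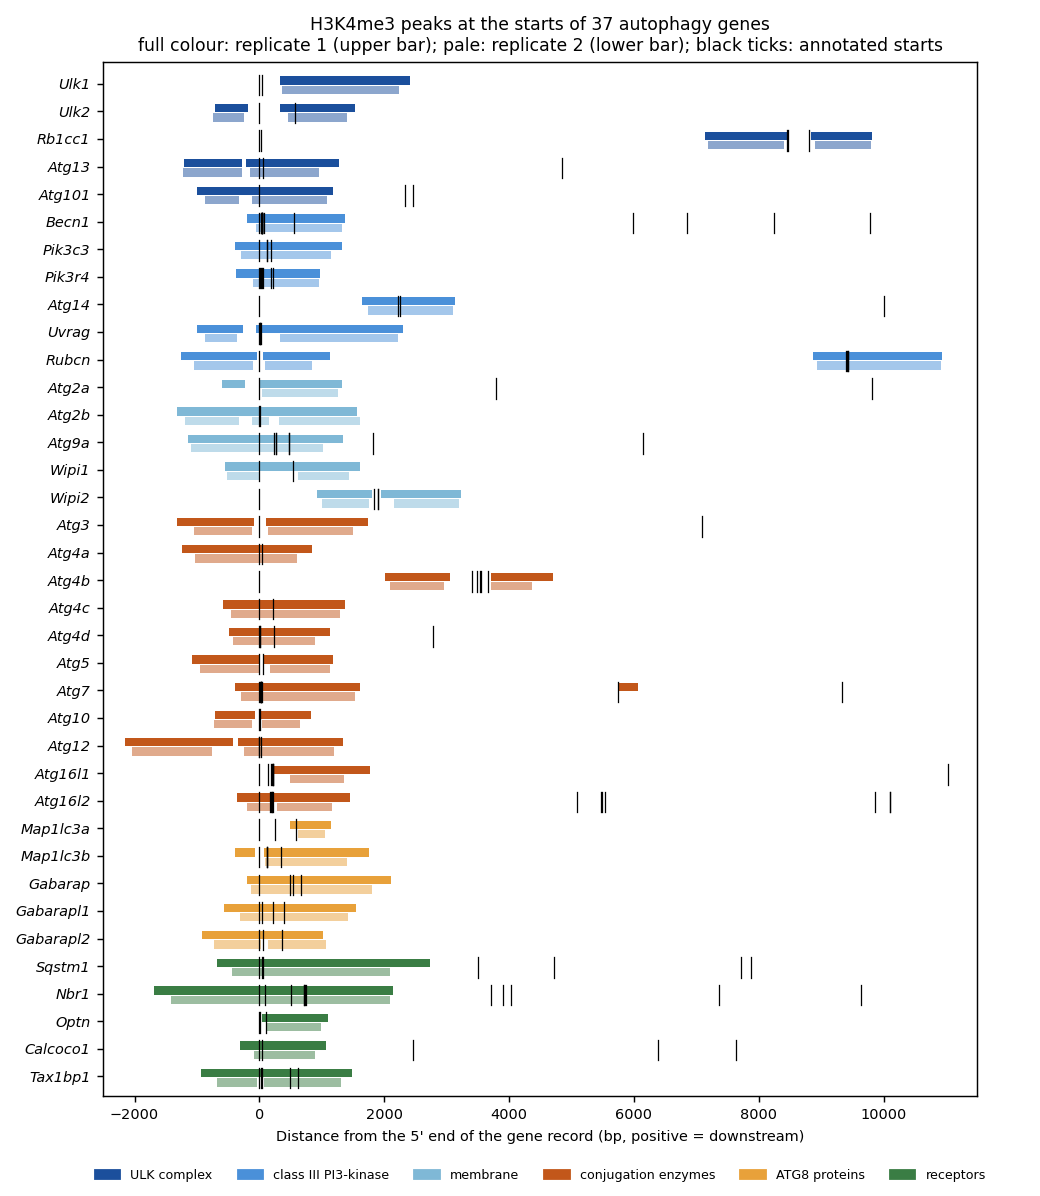
Position of the peaks at each of the 37 autophagy genes, in bp from the 5′ end of the gene record (x axis, positive downstream), with 1 row per gene, replicate 1 in full colour above replicate 2 in pale; colours give the subgroup and ticks the annotated starts, those beyond the axis not being drawn. At Rb1cc1, Atg14 and Atg4b the peaks lay downstream of the 5′ end, and Rubcn had a separate domain at its 5′ end and another about 9 kb inside the gene.

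The 11 conjugation enzymes and carriers had a median width of 1862 bp. The widest were Atg12, the ubiquitin-like protein joined to ATG5, with 3498 and 3233 bp, and Atg3, the enzyme that hands ATG8 proteins to the lipid, with 3061 and 2532 bp. Atg12 also had the highest mean fold percentile of this class, 95.5, from folds of 58.7 and 24.1. Atg7, the activating enzyme of both conjugation reactions, had a middling width (1997 and 1828 bp) and high folds (48.6 and 25.1). Its percentile differed between the replicates, 79.1 in replicate 1 and 96.2 in replicate 2. In replicate 1 alone Atg7 had a further peak of 325 bp with a fold of 3.55, starting 5739 bp downstream of the 5′ end. Atg10, the enzyme that loads ATG12 onto ATG5, had 1534 and 1367 bp, and Atg5, the acceptor in that reaction, had 2259 and 2084 bp. Atg16l1, which brings the ATG12 to ATG5 conjugate to the membrane and is needed for its work on phagosomes, had 1554 and 855 bp, a ratio of 1.82 between replicates that was the largest of the 37. Its paralogue Atg16l2 had 1796 and 1372 bp.

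The ATG4 proteases cut ATG8 proteins before and after conjugation. All 4 were marked in both replicates, with 2088 and 1636 bp at Atg4a, 2690 and 2287 bp at Atg4b, 1952 and 1736 bp at Atg4c, and 1618 and 1307 bp at Atg4d. Their fold percentiles ran in nearly the reverse order, 60.1 at Atg4d, 41.3 at Atg4c, 30.0 at Atg4b and 27.9 at Atg4a.

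The 5 ATG8 proteins tether receptors to the membrane. Gabarap had folds of 55.7 and 24.0, Gabarapl1 54.6 and 19.6 and Map1lc3b 51.4 and 21.4, at percentiles of 93.5, 84.5 and 86.0. Gabarapl2 had 35.1 and 13.3, at 43.1, with a width of 1945 and 1805 bp. Map1lc3a (chr2:155276297-155278073) had the narrowest domain and the lowest folds of all 37 genes, 657 and 426 bp with folds of 14.0 and 7.83, with percentiles of 0.892 for width and 14.0 for fold. LC3A and LC3B are close paralogues, and Map1lc3b had the wider domain of the pair in both replicates, 2141 and 1319 bp.

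The receptors link cargo to ATG8 proteins. Nbr1 (chr11:101552149-101581951), which clusters ubiquitylated cargo together with p62, had the widest domain of all 37 genes, 3830 and 3512 bp. Sqstm1, which encodes p62, had 3421 and 2528 bp, and Tax1bp1, a receptor for ubiquitylated cargo and bacteria, 2426 and 1990 bp. Optn, a receptor in the removal of mitochondria and bacteria, had 1068 and 868 bp and the lowest folds of the class, 32.3 and 12.8. Calcoco1, a receptor for the endoplasmic reticulum and Golgi, had 1383 and 976 bp but the highest folds of the class, 56.2 and 25.6, at a percentile of 95.3. Optn and Calcoco1 were thus both narrow, and of the pair only Calcoco1 was high.

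**Figure D2:**
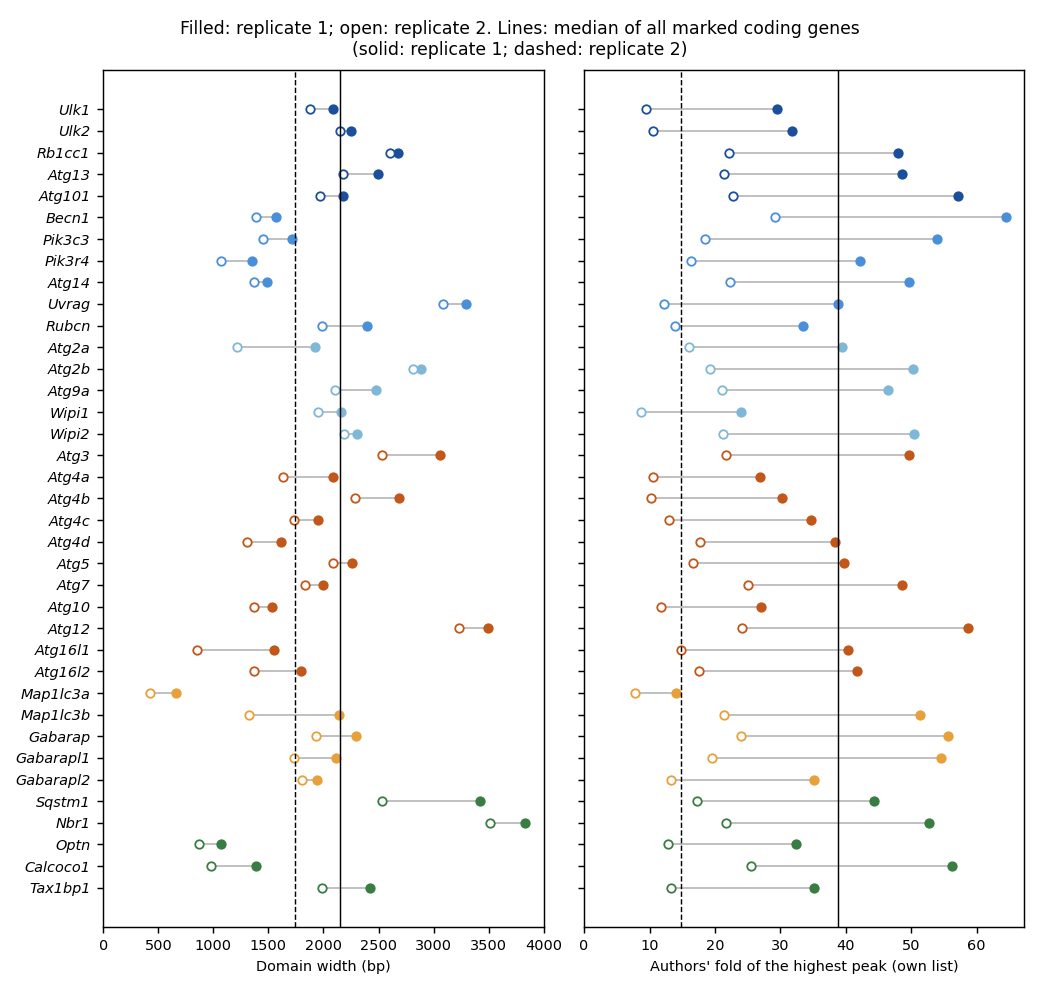
Domain width in bp (left) and the authors' fold of the highest peak (right) for each of the 37 autophagy genes, replicate 1 filled and replicate 2 open, genes ordered by role and coloured by subgroup as in the peak map; the vertical lines are the medians over marked coding genes, solid for replicate 1 and dashed for replicate 2. Replicate 1 was the wider at all 37 genes, Nbr1 was the widest and Map1lc3a the narrowest; the points of Rubcn are of different domains in the 2 replicates.

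Over the 37 genes the median of the mean widths was 1981 ± 187 bp (SD of the replicate medians, n = 2), 2141 bp in replicate 1 and 1876 bp in replicate 2. For all marked coding genes it was 1946.5 bp, with 2149 and 1741 bp. The median of the members was lower than that of marked genes in replicate 1 and higher in replicate 2. By mean width, 19 of 37 members were wider than the median of marked genes. None of the 37 reached 4000 bp in both replicates, against 3.16% of marked genes. Median folds were 42.2 and 17.6 at the autophagy genes and 38.9 and 14.9 at marked genes in replicates 1 and 2, and the median of the mean fold percentiles was 63.9 against 52.1, with 24 of 37 members (64.9%) above 50, against 52.3% of marked genes.

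By class, the median width was 2131.5 bp for initiation, 1868.5 bp for conjugation and 2208 bp for receptors. In replicate 1 the class medians were 2214, 2042.5 and 2426 bp, and in replicate 2 1977, 1733.5 and 1990 bp. Receptors were thus widest and conjugation genes narrowest in both. The SDs of the replicate medians were 168, 218 and 308 bp and include the greater width of replicate 1 at all 37 members. The classes hold 16, 16 and 5 genes, and their difference was not tested. Of the genes above the median width of marked genes, 11 were initiation, 5 conjugation and 3 receptor genes. The median fold percentile was 79.4, 59.1 and 66.2 in the same order. For initiation it was 75.6 in replicate 1 alone and 74.1 in replicate 2 alone. With 1 start per gene it was 61.0 for initiation, 60.1 for conjugation and 66.2 for receptors, so initiation no longer ranked highest. Across the 37 genes, widths of the replicates had a Spearman rho of 0.950 (0.866 over marked genes), folds 0.924 (0.960), and mean width with mean fold percentile 0.179 (0.450). These are descriptions across genes, which are not independent, and width and fold come from the same peaks. Replicate 1 was wider at 37 of 37 members and at 98.7% of marked genes, with median ratios of 1.17 and 1.19.

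**Figure D3:**
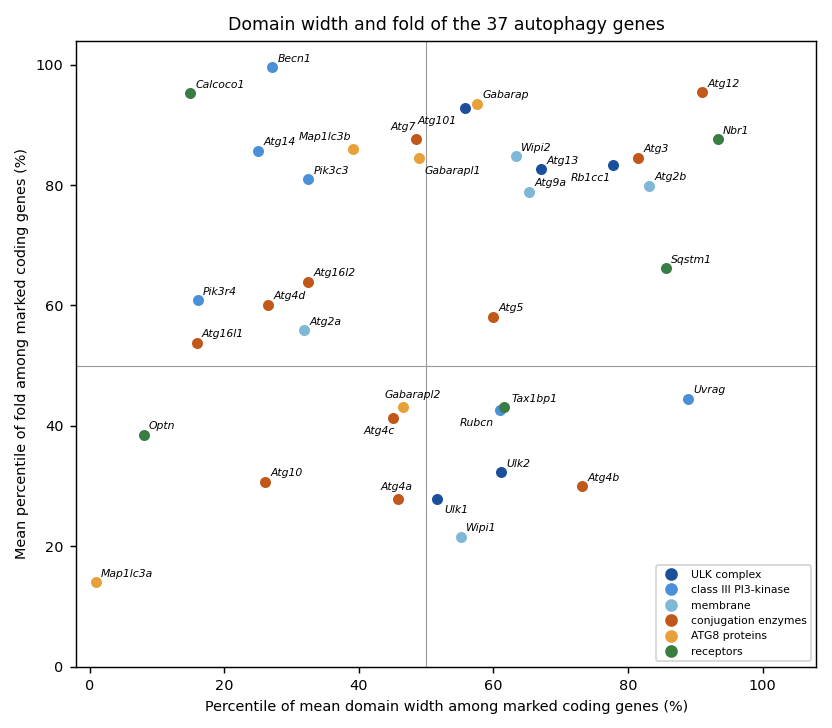
Percentile of mean domain width (x axis) against mean percentile of top fold (y axis), both among marked coding genes, with 1 labelled point per autophagy gene coloured by subgroup and lines at the 50th percentiles. Becn1 and Calcoco1 sat at the upper left, high on narrow domains, Uvrag and Atg4b at the lower right, and Map1lc3a at the lower left corner.

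Shared starts were found at 10 of the 37 genes, 27.0%, counting another protein-coding gene whose start lay within 1000 bp. The share was 14.6% of all coding genes and 25.1% of marked ones, so among marked genes the members' share was near the background. In 9 pairs the genes were head to head with starts 15 to 296 bp apart. In the remaining pair, Atg9a and Ankzf1, the closest starts lay 4 bp apart and the transcripts overlapped there. The other initiation pairs were Atg13 with Harbi1, 276 bp apart, Rubcn with Fyttd1, an mRNA export adaptor, 15 bp apart, and Atg2b with Gskip, 173 bp apart. The conjugation pairs were Atg3 with Slc35a5, a nucleotide-sugar transporter relative, 79 bp, Atg4a with Psmd10, a proteasome assembly chaperone, 179 bp, Atg4b with Thap4, 41 bp, and Atg12 with Ap3s1, a subunit of the AP-3 adaptor, 296 bp. The receptor pairs were Sqstm1 with Mgat4b, a glycosyltransferase, 63 bp, and Nbr1 with Brca1, a DNA repair gene, 194 bp. All 10 partners were marked in both replicates, against 85.2% of all coding genes with a coding partner start. With starts this close, the 1000 bp windows of a pair hold largely the same peaks, so the partner count adds little to that of the members. A domain over such a start cannot be assigned to 1 of the genes. None of the 5 ATG8 genes had a coding partner. Counting any kind of gene raised the number to 15, adding Rb1cc1, Uvrag, Gabarapl1, Optn and Tax1bp1. The share of all coding genes by this wider count was not computed. The Optn partner begins beside an internal Optn start, 26854 bp from the 5′ end, that had no peak within 1000 bp in either replicate.

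The members with a coding partner were the wider ones. Their median width was 2642.5 bp (n = 10), against 1844 bp for the 27 members without one, and 9 of the 10 exceeded the median of marked genes, the exception being Atg4a; of all marked coding genes with a partner, 70.5% did. With the 5′ domain of Rubcn in both replicates, a mean of 2138.5 bp, the median of the 10 was the same. All marked coding genes had the same order, 2299.75 bp with a partner and 1812.5 bp without, so the direction is not particular to autophagy genes. The 4 widest members, Nbr1, Atg12, Uvrag and Sqstm1, held 3 shared starts, and Uvrag was the exception. Without the 10 shared genes the median fold percentile of the members was 60.1.

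**Figure D4:**
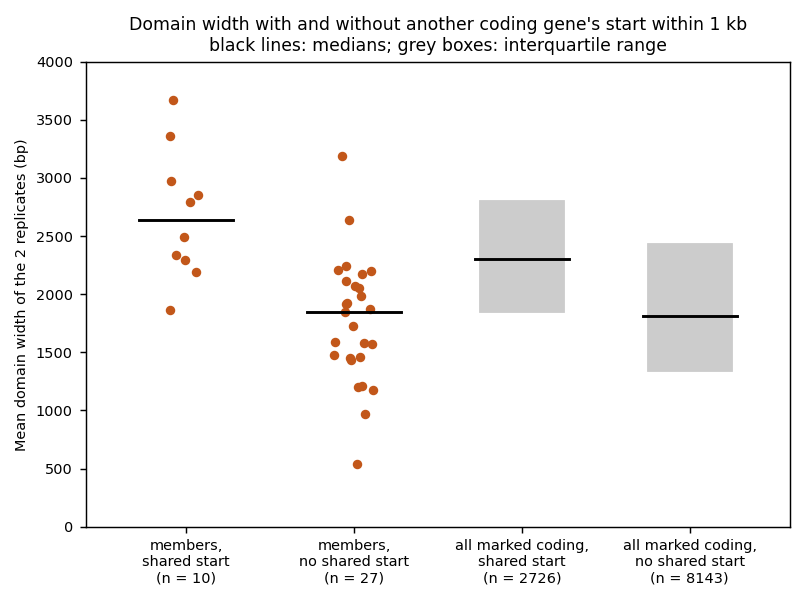
Mean domain width in bp of the autophagy genes with and without a start shared with another coding gene, 1 point per gene, beside the interquartile range (grey box) of all marked coding genes, medians drawn as black lines. Members with a partner had a median of 2642.5 bp and those without 1844 bp, and Map1lc3a was the lowest point.

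Several members were marked only at starts inside the gene record. Rb1cc1, Atg14 and Atg4b had no peak within 1000 bp of the 5′ end in either replicate (3 of 37, 8.11%, against 5.7% of marked genes). The domain of Rb1cc1 began 7131 bp downstream of the 5′ end in replicate 1, that of Atg14 1644 bp and that of Atg4b 2020 bp. At Wipi2 a peak came within 1000 bp of the 5′ end in replicate 1 alone. With only the 5′ end of each gene record as a start, 33 of the 37 genes were marked in both replicates and these 4 were lost, while the share of all coding genes was 46.1%. The complete count depends on using all starts. Rubcn was the only member with 2 separate domains in both replicates (2.70%, against 5.26% of marked genes). Its 5′ domain spanned 2391 and 1886 bp with folds of 29.1 and 13.8, and its internal domain, which holds the E-box promoter printed above, 2070 and 1989 bp with folds of 33.4 and 11.7. The higher of the Rubcn domains was the internal one in replicate 1 and the 5′ one in replicate 2.

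The same 4 genes, Rb1cc1, Atg14, Atg4b and Wipi2, were the only members whose 5′ end was CpG-poor, that is, in the lowest of 3 equal groups of coding genes by the CpG observed/expected ratio, the count of CG pairs over that expected from base composition, taken over 1000 bp on either side. Their ratios there were 0.163, 0.191, 0.265 and 0.155, and at the start nearest the summit in replicate 1 they were 0.852, 0.578, 0.969 and 0.810. Rubcn went the other way, with 0.886 at the 5′ end and 0.432 at the internal start. Over the 37 genes the median was 0.645 at the start nearest the summit and 0.629 at the 5′ end, against 0.632 and 0.624 over marked genes. The 4 members with a CpG-poor 5′ end had a median width of 2367.5 bp, against 1808.5 bp for marked coding genes of that group. These 4 domains lay at internal starts with the higher ratios given above, so their widths are not those of CpG-poor promoters. The 14 members of the middle group had 1577.75 bp, against 1623.25 bp, and the 19 of the highest 2171.5 bp, against 2195 bp. Of all coding genes, 12.1% were marked in the lowest group, 56.0% in the middle and 80.5% in the highest. Most members were in the upper groups, so 49.5% is a low background for their complete marking.

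**Figure D5:**
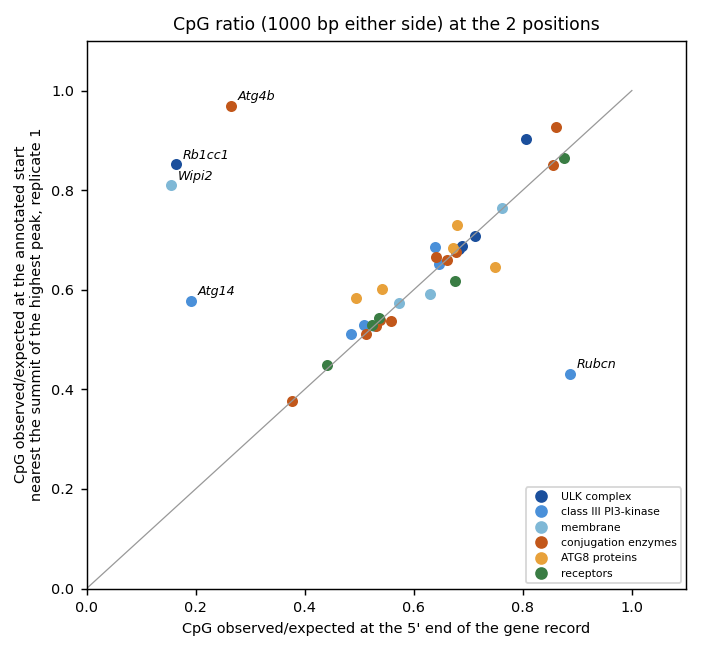
CpG observed/expected ratio of the autophagy genes at the 5′ end of the gene record (x axis) and at the annotated start nearest the replicate 1 summit (y axis), 1 point per gene. Rb1cc1, Atg14, Atg4b and Wipi2 lay far above the diagonal and Rubcn below it, while most other genes lay close to it.

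Many annotated starts did not lie under a peak. Of 254 annotated starts in the 37 genes, 141 (55.5%) had a peak within 1000 bp in both replicates and 92 (36.2%) lay under one, against 65.2% and 38.7% of 61687 starts of marked genes. A peak covered the 5′ end in both replicates at 19 of 37 members (51.4%, against 49.5% of marked genes), and the 5′ end lay in a gap in both at 4, Ulk2, Rubcn, Atg3 and Atg10 (10.8%, against 13.2%). The gap at Ulk2 was 507 bp in replicate 1 and 702 bp in replicate 2, at Atg3 185 and 251 bp, and at Atg10 89 and 169 bp. Atg4b had the longest gaps of the members, 643 and 762 bp, with 5 of its starts inside. At 7 members, Ulk1, Atg2a, Wipi2, Atg3, Atg4b, Atg10 and Atg16l1, no annotated start lay under a peak in either replicate (18.9%, against 15.6%). The shares for gaps and uncovered starts were thus near those of marked genes in general. Domains reached farther downstream than upstream of the 5′ end at 31 of 37 members (83.8%, against 81.3%).

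The rest of the pathway was nearly as complete. Of 51 further autophagy genes in 4 lists (52 were listed and Becn2 was not matched), 48 were marked in both replicates, against 49.5% of all coding genes. The 48 included all 11 upstream kinase and mTORC1 genes, all 11 other initiation and membrane genes and all 14 fusion genes. In the initiation and membrane list the widest were Vmp1, a scramblase of the endoplasmic reticulum, with 6600 and 4939 bp, and Atg9b, the paralogue of Atg9a, with 3284 and 2856 bp. Among the fusion genes they were Tecpr1, a tether to the lysosome, with 4990 and 3179 bp, and the SNARE gene Snap29, with 2689 and 2257 bp. Upstream they were Akt1s1, an inhibitory subunit of mTORC1, with 3817 and 3385 bp, and Stk11, the kinase that activates AMPK, with 3561 and 3134 bp. Vmp1, Snap29 and Akt1s1 each had another coding gene's start within 1000 bp, so their domains cannot be assigned to 1 gene. Atg9b, Tecpr1 and Stk11 had none. The list of other selective receptors was the incomplete one, with 12 of 15 marked, led by Ncoa4, the ferritin receptor, with 4887 and 3245 bp, and Bnip3, a receptor for mitochondria, with 4688 and 3096 bp. Calcoco2, whose human counterpart NDP52 is a receptor for bacteria, and Pink1, a kinase of mitochondrial removal, had no promoter peak in either replicate. Stbd1, a glycogen receptor, had a peak domain of 1011 bp with a fold of 8.59 in replicate 1 alone.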

How the data were processed

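The deposited files are narrowPeak lists of H3K4me3 ChIP-seq, 1 per replicate and 2 of the series. Texts deposited beside the lists say that the authors derived pseudoreplicated peaks from each replicate and from both together, and a replicated list, on mm10. The aligner, the peak caller and the thresholds used are not stated in the sources at hand. In the deposited lists, the authors gave each peak a score, a fold (a ratio whose denominator the lists do not state) and −log10 p and −log10 q values from their peak calling. With no read counts, depth and the precision it gives are unknown, and no interval was computed. The labels give 10 ng as the starting DNA.

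From these lists, a gene counted as marked if each replicate's list had a peak that overlapped by at least 1 bp the 1000 bp on either side of any GENCODE M21 transcript start. Peaks within 1000 bp were joined and the widest domain at a start was measured. Fold percentiles were taken within each list among its marked coding genes, and width percentiles among the 10869 genes marked in both. Joining mixes peaks of neighbouring genes, and a wider list gives wider domains, so widths were compared within a replicate or as the mean of both. The CpG ratio was computed on GRCm38.p6. The window and overlap routine was tested on simulated data. Python 3.11.15, numpy 2.4.6 and matplotlib 3.10.9 were used. Alternatives were other windows, starts, joins, overlaps, lists and single replicates. All values are descriptions with no test.

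The members, the lists of other genes and the motifs were chosen with earlier results of these data known. All members were accounted for. Those given in full were the 3 widest and the highest and lowest fold of each class, and every member with a shared, internal or split start. From the other lists, genes not marked in both replicates and the 2 widest of each were named.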

Additional observations from a re-analysis of the deposited data

How the results depend on the processing

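All 37 genes were marked in both replicates under each alternative except 1 start per gene, which left 33, with 46.1% of all coding genes. Without joining peaks, the median width of the members was 1484.5 bp, with 1480 bp for initiation, 1478.5 bp for conjugation and 1830.5 bp for receptors, and that of all marked coding genes was 1473.5 bp; the change follows from the construction, since split domains are then measured in pieces. Without the members that share a coding start, 27 of 27 were marked and the median fold percentile was 60.1. For initiation it was 61.0 with 1 start per gene, below receptors (66.2). That setting left 13 initiation genes, without Rb1cc1, Atg14 and Wipi2, whose percentiles were 83.4, 85.7 and 84.8. With 1 replicate left out it was 74.1 to 75.6, a median of single-replicate percentiles, whereas 79.4 is the median of the means of both. The number of members with a shared start was 10 at 500 bp and 15 with any gene type. The other group medians and counts moved by less than the spread between replicates or by under 1.5 times. For single genes, 27 widths of 440 and 22 fold percentiles of 366 moved by more than the SD of the gene's 2 replicate values. These totals include the settings with 1 replicate left out, which could not move a single gene by this rule. The 2 replicate values always lie within that SD of their mean. Of 370 marked states 4 changed, all with 1 start per gene. The median width of the members was above that of marked genes as the mean of both replicates. It lay below with 1 start per gene (1924 against 1937.75 bp) and with joining within 3000 bp (1981 against 2037 bp). Without the members that share a start it was 1844 bp, against 1812.5 bp for marked coding genes without a coding partner. No paired analysis was possible because there is 1 group. Depth is unknown, so a gene without a peak is not shown to lack the mark. Peaks at a shared start cannot be assigned to 1 gene.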
